A study of Mus musculus with 12 samples.

Results

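Trefoil factors, mucins and genes of the gastric type were followed in mouse pancreatic acini and in organoids with a ductal morphology. The genes were Tff1, Tff2, Tff3, Muc1, Muc4, Agr2 and Anxa10, taken as every probe set of the array whose platform annotation gave 1 of these symbols and no other. They had 11 probe sets in all, of the 45101 on the array, and stood for 7 of 18193 genes. All 7 passed the filter on low values through at least 1 probe set.

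The 12 samples fall into 3 groups of 4 arrays, lettered A to D, which the labels call biological replicates. Acini, the clusters of cells that secrete digestive enzymes, were taken fresh from the pancreas. Ducts were organoids grown from fragments of native ducts. yDucts were organoids grown from acinar cells of adult R26-rtTA; tetO-YAP S127A mice, in which doxycycline switched on a YAP that lacks an inhibitory phosphorylation site. The rtTA transactivator is expressed from the R26 locus and so is not restricted to acinar cells by its promoter. After the pulse, yDucts can be passaged without doxycycline, and YAP-induced organoids can be expanded as clonal lines. The sources used here do not say whether the 4 arrays of a group stand for separate animals, isolations or lines, nor which genotype the mice behind Acini and Ducts had. All p-values thus rest on array-to-array spread, some of which may be technical. Both organoid groups were embedded in Matrigel in a medium with gastrin, EGF, FGF10, Noggin, nicotinamide and R-Spondin1. Acini never passed through this culture, so that an effect of the culture and one of the cell state cannot be told apart where organoids are set against Acini. In these bulk samples, fewer cells of a type and less RNA per cell cannot be told apart either.

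Trefoil factors are small secreted peptides, folded into cysteine-rich loops, that are released with mucus and help to protect and repair epithelia of the gut. Mucins are large proteins carrying dense O-linked sugars, and they are either secreted to form gels or anchored in the apical membrane. A normal pancreatic duct makes little gastric mucus, whereas early duct-derived and acinar-derived lesions of the pancreas are known to take up a gastric programme in which these genes are used as markers.

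The labels were checked first. The 8 acinar markers had a mean level of 12.84 to 12.97 (log2) on the Acini arrays, against 3.39 to 3.76 on Ducts and 3.59 to 3.78 on yDucts. The 6 duct markers read 6.17 to 6.52, 8.49 to 10.94 and 9.14 to 9.70. Of these, 4 passed the limma test as higher in each organoid group and 2, Cftr and Sox9, did not. Among all genes tested, 42.7% did in Ducts and 43.6% in yDucts. On Ducts A to D, Cftr read 3.57, 6.61, 2.23 and 2.38 and Car2 10.70, 11.78, 6.51 and 6.04, so these markers were low on Ducts C and D. Markers of immune, endocrine, stromal, endothelial and mesothelial cells were all brighter, as list means, on every Acini array than on any organoid array, for example 7.22 to 7.77 against 3.31 to 3.71 and 3.44 to 3.58 for the 3 stromal markers. Their part in the differences from Acini was not tested. The Gapdh control probe sets read 1.29 to 1.91 higher at the 3′ than at the 5′ end on Acini arrays, but -0.07 to 0.02 on Ducts and -0.17 to -0.12 on yDucts. The Ducts arrays were not alike. Ducts C and D differed by a root mean square of 0.27 (log2) over all genes tested, whereas Ducts B lay 0.81 and 0.89 from them and 0.58 from Ducts A. Among yDucts, array B lay 0.41 to 0.42 from the others, which lay 0.19 to 0.26 apart.

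All levels are log2 expression values, and a level is compared only between arrays and never between probe sets. The 30th percentile of an array, about 3.72 in Acini, 3.21 in Ducts and 3.20 in yDucts, serves as the limit below which a probe set is called dim. Calls were made with limma over all 14990 genes tested, at an adjusted p below 0.05. Differences are given with the standard error (SE) of the fit and group levels as mean ± SD over 4 arrays.

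The first comparison asks how native ductal organoids differed from acini. Tff2 and Agr2 were lower in Ducts, Muc4 was higher, and Tff1, Tff3, Muc1 and Anxa10 did not pass the test. Thus 3 of 7 genes were called with the deposited values, where 75.8% of all genes tested were called in this comparison. Cyclic loess scaling gave 5 of 7, against 62.4% of all genes. In the second comparison, of yDucts with Acini, Tff2, Agr2 and Muc1 were lower and Anxa10 was higher, so that 4 of 7 were called against 76.2% of all genes. Quantile normalization gave 5 of 7 there, against 65.1% of all genes, so the order of these shares depends on the scaling. In the third, of yDucts with Ducts, 0 of 7 were called by limma against 3.14% of all genes, and 1 of 7, Muc1, had an unadjusted p under 0.05. The first and second comparisons share the Acini arrays and are not independent of each other.

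**Figure D1:**
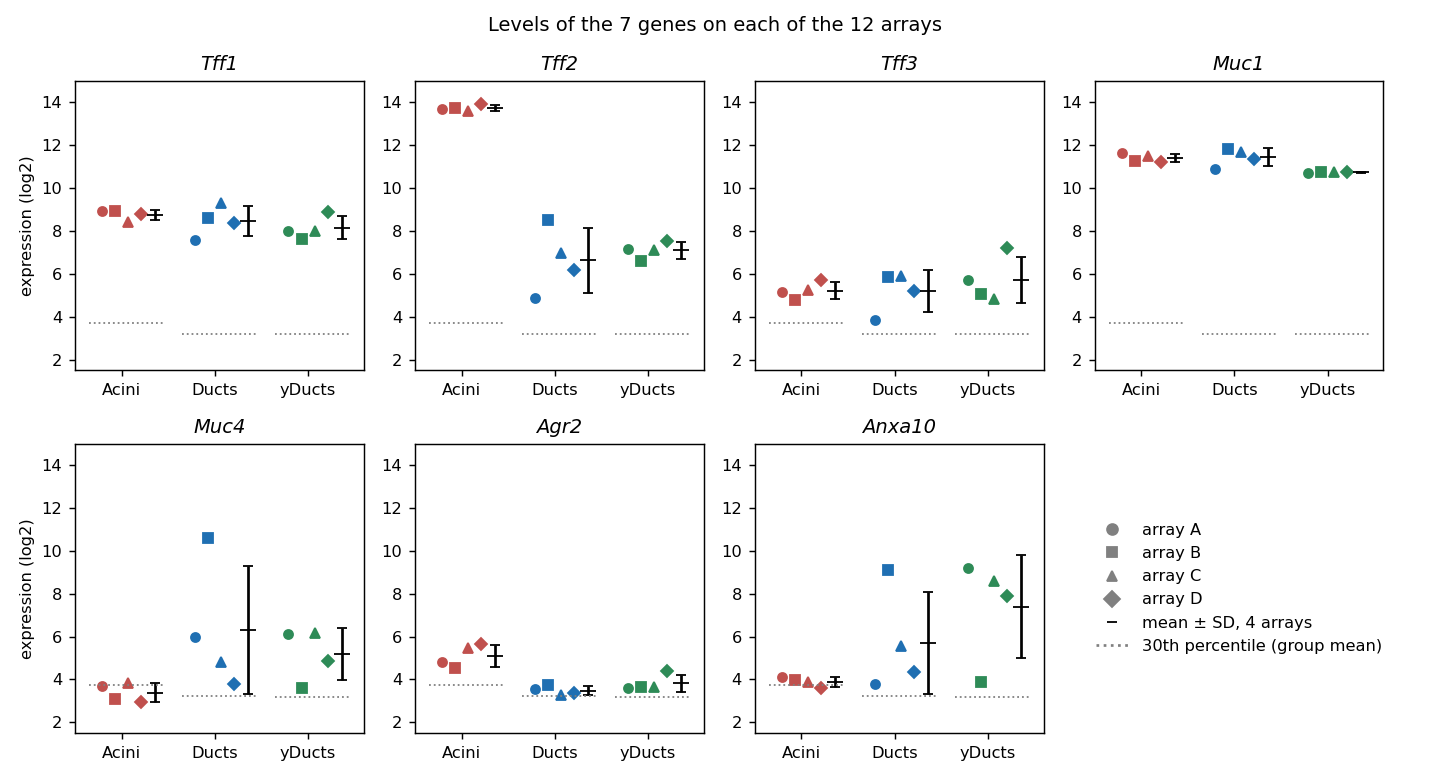
Expression (log2, vertical axis) of the 7 genes on each array of Acini, Ducts and yDucts; symbols mark arrays A to D, bars the mean ± SD of 4 arrays and dotted lines the group's mean 30th percentile. Tff2 lies between 13.60 and 13.94 in Acini and at most at 8.53 on every organoid array, while Muc4 and Anxa10 spread widely within the organoid groups.

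Among the trefoil factors, Tff2 is the spasmolytic polypeptide of gastric mucous neck cells and of the glands of the duodenum, and was first purified from pancreas. Its level was 13.71, 13.74, 13.60 and 13.94 on Acini A to D. It was 4.89, 8.53, 6.97 and 6.16 on Ducts A to D, and 7.18, 6.58, 7.13 and 7.51 on yDucts A to D. Every organoid array thus read at least 5 log2 units below the dimmest Acini array, and all 8 organoid arrays remained above their 30th percentile. The group levels were 13.75 ± 0.14, 6.64 ± 1.52 and 7.10 ± 0.39. In Ducts the gene was 138-fold lower than in Acini (-7.11 ± 0.55 SE, adjusted p = 1.78e-07), the 46th most negative difference of the 14990 genes. In yDucts it was 100-fold lower (-6.65 ± 0.55, adjusted p = 3.17e-07), the 50th most negative. Groups without overlap were common in both comparisons, at 64.5% and 71.7% of all genes. Between the organoid groups the difference was 0.46 with a 95% interval of -0.73 to 1.66, and the 4 yDucts arrays lay within the range of the Ducts arrays.

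The genes whose centred levels lay closest to those of Tff2 over the 12 arrays were Bhlha15, Smim38 and Aqp12, at a root mean square distance of 0.70, 0.70 and 0.78 (log2), where the spread of Tff2 itself about its mean was 3.34. Bhlha15, or Mist1, is a transcription factor of secretory acinar cells and was among the acinar markers used above. On the organoid arrays Bhlha15 read 3.98 to 5.12 and Aqp12, an aquaporin of acinar cells, 5.04 to 5.32. Bhlha15 read 3.99, 5.12, 4.71 and 4.23 on Ducts A to D, in the same order as Tff2. Aqp12 was also highest of Ducts on Ducts B, at 5.25. Both varied less within Ducts than Tff2, which reached 8.53 on Ducts B.

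Tff1, the trefoil peptide of the gastric surface mucous cells, read 8.94, 8.91, 8.43 and 8.79 in Acini. It read 7.56, 8.62, 9.29 and 8.38 in Ducts and 8.0, 7.64, 8.02 and 8.90 in yDucts. All 12 arrays were well above the 30th percentile and the 3 groups overlapped. The difference was -0.31 (95% interval -1.03 to 0.42, adjusted p = 0.419) for Ducts and -0.63 (-1.35 to 0.10, adjusted p = 0.104) for yDucts against Acini. The call turned on the scaling: quantile normalization of the deposited values gave -1.16 (adjusted p = 0.0113) for Ducts and -1.49 (0.00245) for yDucts, and cyclic loess gave -1.41 and -1.74, all of them lower. Without yDucts D, the array with the highest Tff1 of its group, the gene was called lower in yDucts (-0.88, adjusted p = 0.0279), as it was when only the arrays of both groups were fitted (-0.63, adjusted p = 0.0435).

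Tff3, the trefoil peptide of intestinal goblet cells, read 5.14, 4.79, 5.24 and 5.71 in Acini, 3.84, 5.85, 5.91 and 5.18 in Ducts, and 5.73, 5.07, 4.82 and 7.21 in yDucts. The groups overlapped in full and no comparison passed the test, with differences of -0.02 (95% interval -1.16 to 1.11) in Ducts and 0.49 (-0.64 to 1.62) in yDucts. The 7.21 of yDucts D was the brightest Tff3 value of all arrays. The 3 trefoil genes are neighbours on chromosome 17, in the order Tff3, Tff2, Tff1 among protein-coding genes. Ducts A had the lowest level of its group for all 3 of them.

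**Figure D2:**
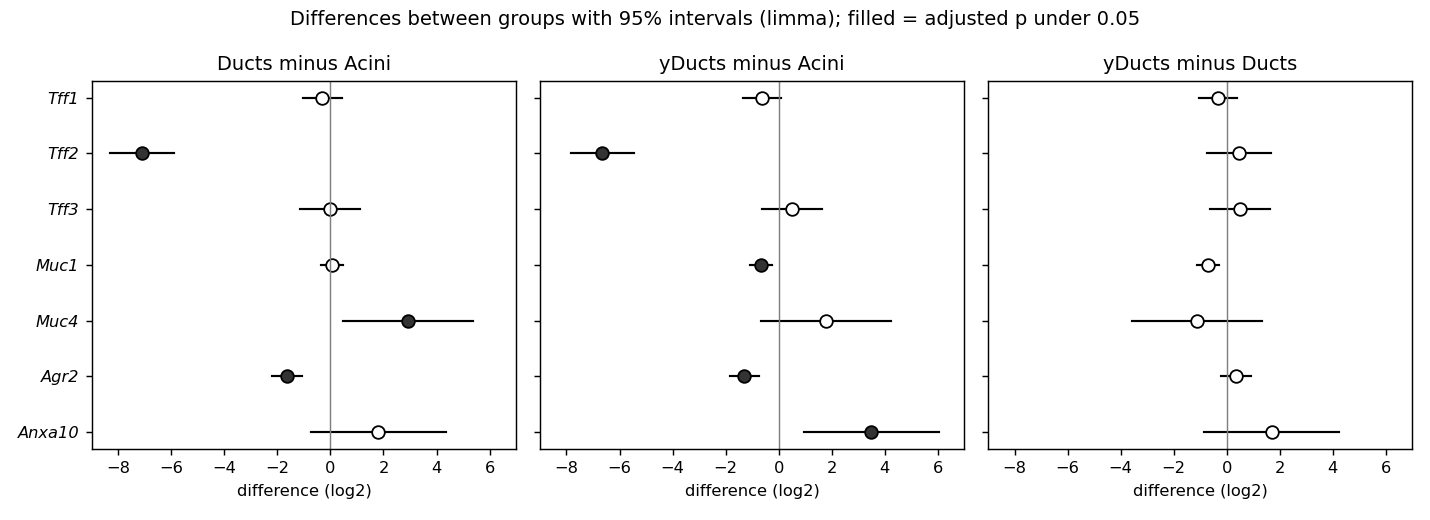
Difference in log2 expression (horizontal axis) with its 95% interval for each gene in the 3 comparisons, from limma; filled points have an adjusted p under 0.05. Tff2 and Agr2 lie below 0 in both comparisons with Acini, Muc4 and Anxa10 have the widest intervals, and 0 points are filled in yDucts minus Ducts.

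Of the membrane mucins, Muc1, an apical mucin of pancreatic ducts and acini with a signalling tail, was bright on every array. It read 11.63, 11.28, 11.49 and 11.21 in Acini, 10.91, 11.85, 11.71 and 11.37 in Ducts, and 10.71, 10.74, 10.76 and 10.73 in yDucts. The yDucts values lay below all 8 others. Muc1 was 1.59-fold lower in yDucts than in Acini (-0.67 ± 0.19, adjusted p = 0.00656), a call that was lost when each array was centred on its median (-0.45, adjusted p = 0.0507). Between yDucts and Ducts the difference was -0.72 ± 0.19 (95% interval -1.14 to -0.31, adjusted p = 0.0639). The 2 groups did not overlap, as was the case for 12.3% of all genes, and without Ducts A, the dimmest of its group, the gene was called lower in yDucts (-0.91, adjusted p = 0.00754). Ducts and Acini differed by 0.06 (95% interval -0.36 to 0.47, adjusted p = 0.793). Cyclic loess turned this to -0.98 (adjusted p = 0.000891) and quantile normalization to -0.45 (adjusted p = 0.0561). The spread of Muc1 among yDucts, an SD of 0.02, was smaller than the median gene's 0.137, whereas in Ducts its SD of 0.42 exceeded the median of 0.229.

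Muc4, a very large membrane mucin that binds the receptor Erbb2 and is a known marker of pancreatic neoplasia, varied far more. The probe set used for the gene, 1438555_x_at, read 3.70, 3.09, 3.82 and 2.92 in Acini, below the array's 30th percentile on all but Acini C. It read 5.98, 10.61, 4.82 and 3.80 in Ducts and 6.13, 3.58, 6.16 and 4.86 in yDucts. A single array, Ducts B, stood more than 4 log2 units above every other, and Ducts D lay just under Acini C. Ducts exceeded Acini at least 5.81-fold (2.92 ± 1.13 SE, adjusted p = 0.0318), with the Acini values raised to the 30th percentile. The 95% interval of 0.47 to 5.37 shows how little the size was fixed. The call was lost with Ducts A and B left out (0.93, adjusted p = 0.194), with array weights (1.55, 0.226), with the mean of the probe sets (1.08, 0.138), and without Acini A (0.0526), B (0.0666) or D (0.0716). Over all alternatives the difference ran from 0.93 to 4.91 and the adjusted p from 0.00142 to 0.226. In yDucts the difference was 1.80 ± 1.13 (adjusted p = 0.162), and it was called without Ducts B (adjusted p = 0.0117), whose spread enters the common variance, and with only the Acini and yDucts arrays fitted (adjusted p = 0.00811). Among the 14990 genes, Muc4 had the 20th largest SD within Ducts and the 55th largest within yDucts.

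Of the other probe sets of Muc4, 1427398_at read 3.79, 3.50, 3.49 and 3.08 in Acini and 3.62, 2.66, 3.54 and 3.33 in yDucts, and in Ducts it read 4.54, 7.41, 3.44 and 2.80. It too was brightest on Ducts B and second on Ducts A, but passed no test (Ducts minus Acini 1.08 ± 0.72, adjusted p = 0.191 over all probe sets, of which 71.2% were called). In yDucts against Acini its difference was -0.18 ± 0.72, where 71.3% of probe sets were called, and in yDucts against Ducts -1.26 ± 0.72, where 2.32% were. Probe set 1432119_at was below the 30th percentile on all 12 arrays. The suffix _x_at marks a probe set with probes that may also match other transcripts, so the level of 1438555_x_at is not certain to be Muc4 alone.

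Anxa10, a calcium-dependent membrane-binding annexin found in gastric epithelium, read 4.12, 3.96, 3.88 and 3.59 in Acini through probe set 1449426_a_at. It read 3.80, 9.09, 5.57 and 4.35 in Ducts, and 9.22, 3.87, 8.57 and 7.89 in yDucts. The Ducts arrays were thus spread from 3.80 to 9.09, and 3 of 4 yDucts arrays lay at 7.89 or more. Ducts A and yDucts B lay within the range of the Acini arrays. The gene was 11.3-fold higher in yDucts than in Acini (3.50 ± 1.17 SE, 95% interval 0.97 to 6.03, adjusted p = 0.0155), although the groups overlapped through yDucts B. Without yDucts A the difference was 2.89 and was no longer called (adjusted p = 0.0512). In Ducts it was 1.81 (95% interval -0.72 to 4.35, adjusted p = 0.173), and between yDucts and Ducts 1.69 (-0.85 to 4.22, adjusted p = 0.638). Its SD was the 3rd largest of 14990 genes within yDucts and the 63rd largest within Ducts. Probe set 1430443_at was above the 30th percentile on 3 arrays, which were Ducts B at 4.77, yDucts C at 4.24 and yDucts A at 3.90. These are among the arrays on which the other probe set of Anxa10 was highest. Probe set 1430443_at was below the filter. Fitted by limma without the filter, it was not called against Acini in yDucts (0.66 ± 0.48, adjusted p = 0.234) or Ducts (0.25 ± 0.48, adjusted p = 0.65).

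Because Muc4 and Anxa10 varied most within the organoid groups, the 250 bases before their RefSeq starts are shown from GRCm38.p6, with Muc4 at chr16:32735636-32735885 on the plus strand and Anxa10 at chr8:62123194-62123443 on the minus strand, each 5′ to 3′ along the gene. Capitals mark the letters GGAATG, the core that binds TEAD factors, the DNA-binding partners of YAP, on either strand, and TGAGTCA, the AP-1 motif.
Muc4: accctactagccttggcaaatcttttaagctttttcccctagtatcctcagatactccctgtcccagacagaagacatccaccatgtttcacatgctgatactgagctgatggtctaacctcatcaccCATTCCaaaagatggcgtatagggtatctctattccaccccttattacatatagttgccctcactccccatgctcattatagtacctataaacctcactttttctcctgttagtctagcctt
Anxa10: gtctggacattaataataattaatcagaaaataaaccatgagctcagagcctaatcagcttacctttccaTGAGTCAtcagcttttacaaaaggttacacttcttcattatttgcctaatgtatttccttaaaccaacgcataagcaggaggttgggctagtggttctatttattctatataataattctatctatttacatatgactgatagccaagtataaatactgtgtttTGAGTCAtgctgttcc
The Muc4 window held the TEAD core 1 time, on the reverse strand, with its first base at position -122 from the start. The Anxa10 window held TGAGTCA at positions -180 and -16 and no TEAD core. Muc1 had the TEAD core at position -132. Agr2 held neither these nor the FOXA motif TGTTTAC, its known variant form TGTTTGC, the GATA motif AGATAA or the HNF1 motif GTTAAT, all searched on both strands. Of 32851 promoters of the same length, 12.6% held the TEAD core and 4.46% held TGAGTCA, and the other motifs were in 3.17%, 4.30%, 9.99% and 6.43% in the order named, so that such matches are common and describe letters only. Promoters were matched for 4 of the 7 genes, and those of Tff1, Tff2 and Tff3 were not used here.

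The genes with patterns closest to Muc4 over the 12 arrays were Nlrp10, Ppbp and Aldh3a1, at distances of 0.47, 0.84 and 0.93 against a spread of 2.03 for Muc4 itself. Nlrp10 read 4.96, 9.33, 4.08 and 3.22 in Ducts and Ppbp, a platelet chemokine, 5.91, 9.74, 3.19 and 2.69. For Anxa10 the closest were Ppp1r3c, Cpm and Id3, at 0.97, 1.04 and 1.07 against its own 2.22. Ppp1r3c, a subunit that targets a phosphatase to glycogen, read 7.76 on Ducts B and 3.97 to 4.18 on the other Ducts arrays. On yDucts A to D it read 7.94, 5.55, 7.54 and 7.59. Array B was therefore the highest of Ducts and the lowest of yDucts for both Ppp1r3c and Anxa10, and the same held for Cpm. These distances share the same libraries and are a description.

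**Figure D3:**
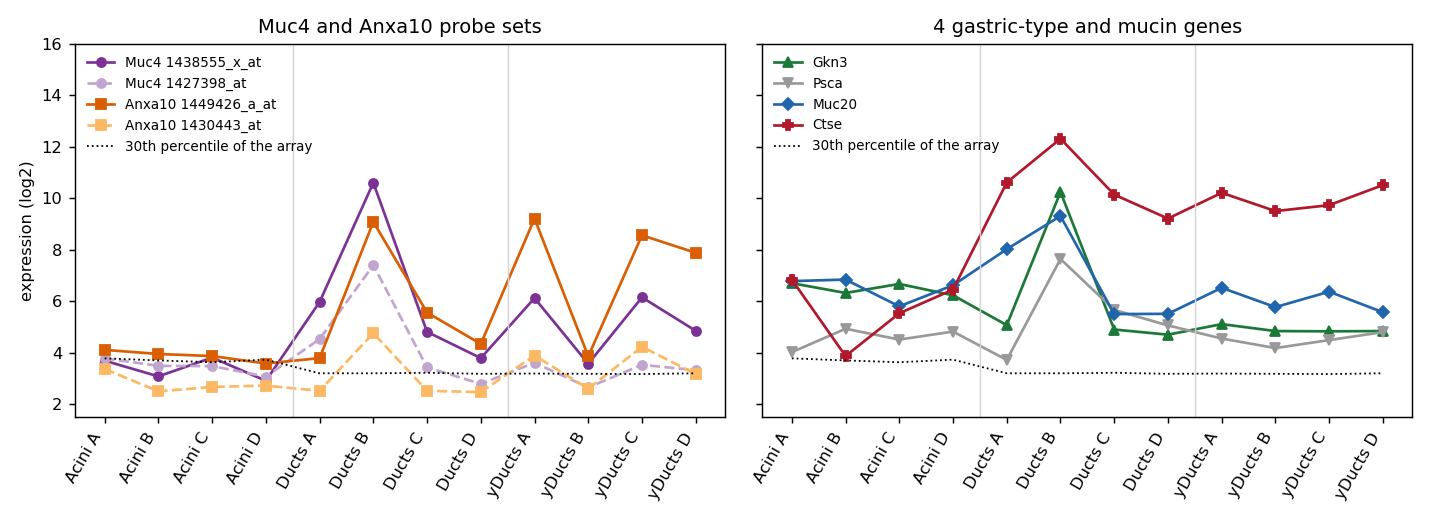
Expression (log2, vertical axis) on the 12 arrays of 2 probe sets of Muc4 and both of Anxa10 (left) and of Gkn3, Psca, Muc20 and Ctse (right); the lines only join points and dotted lines give each array's 30th percentile. The genes on the right were chosen because they were high on Ducts B. Muc4, Gkn3, Muc20, Psca and Ctse are all highest on Ducts B, and Anxa10 is also high on yDucts A, C and D.

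Agr2, a disulfide isomerase of the endoplasmic reticulum needed to fold mucins, read 4.79, 4.54, 5.45 and 5.63 in Acini. It read 3.54, 3.76, 3.26 and 3.34 in Ducts and 3.59, 3.62, 3.65 and 4.39 in yDucts. Every organoid array lay below every Acini array, and the organoid values stood little above the 30th percentile. Against Acini, 64.5% of all genes did not overlap in Ducts and 71.7% in yDucts. Agr2 was 3.09-fold lower in Ducts (-1.63 ± 0.26, adjusted p = 8.93e-05) and 2.45-fold lower in yDucts (-1.29 ± 0.26, adjusted p = 0.000573), and both calls held under all 25 alternatives. Between yDucts and Ducts it differed by 0.34 (95% interval -0.22 to 0.90, adjusted p = 0.696). Its second probe set, 1455802_x_at, was below the 30th percentile on all 12 arrays. The genes closest to Agr2, 4930556L07Rik, 1700010L04Rik and Ajm1, lay at 0.26, 0.26 and 0.27 against a spread of 0.78.

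Taken by array, Ducts B had the highest level of its group for 5 of the 7 genes and Ducts A the lowest for 5. In yDucts, array D was highest for 4 and array B lowest for 4. With Ducts A and B left out, 2 genes were called in Ducts against Acini, 5 in yDucts against Acini and 1 in yDucts against Ducts, where 73.8%, 78.6% and 14.6% of all genes were called. With Ducts C and D left out the counts were 3, 4 and 0, against 70.2%, 77.1% and 2.15% of all genes.

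The scaling of the arrays mattered to some of these genes. The median difference of all genes was 0.21 in Ducts and 0.24 in yDucts against Acini as deposited, and -0.15 and -0.15 after quantile normalization. All directions called in the deposited values stayed the same under the 3 other scalings.

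**Figure D4:**
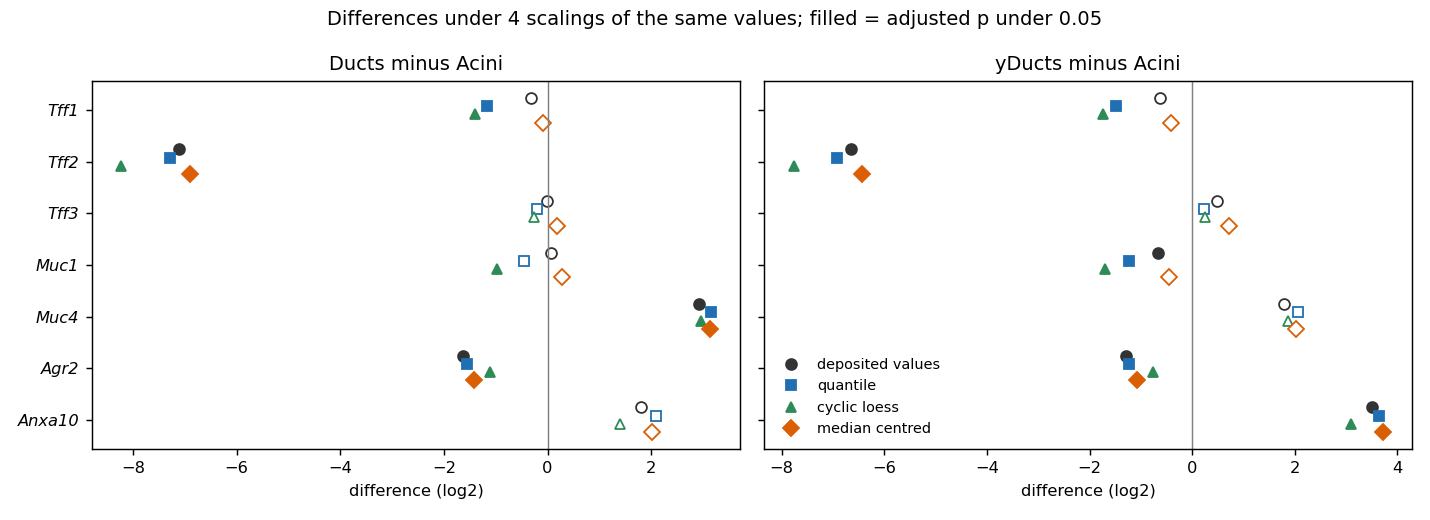
Difference in log2 expression from Acini (horizontal axis) for Ducts (left) and yDucts (right) with the deposited values and 3 further scalings of them; filled points have an adjusted p under 0.05. Tff2 and Agr2 are filled and below 0 under all 4, whereas Tff1 is filled only after quantile normalization and cyclic loess.

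The remaining mucins with a tested probe set did not pass the test in any comparison with the deposited values. Of the gel-forming mucins, Muc2, the mucin of goblet cells, read 4.03 on average in Acini, 4.13 in Ducts and 3.87 in yDucts. Muc5ac, of the gastric surface, read 5.50, 4.96 and 5.09, and Muc5b, of airway and gland mucus, 4.76, 4.70 and 4.77. On Ducts B, Muc5ac read 5.70 against 4.63 to 4.81 on the other Ducts arrays and Muc5b read 5.63 against 4.22 to 4.50. The lowest adjusted p was that of Muc5ac in Ducts against Acini (-0.53, adjusted p = 0.0522), and after quantile normalization Muc5ac was called lower and Muc2 higher there. Of the membrane mucins Muc13, of the intestine, averaged 5.78, 5.38 and 5.82. Muc20, whose gene lies next to Muc4 on chromosome 16, read 8.03, 9.32, 5.51 and 5.52 in Ducts, 5.81 to 6.85 in Acini and 5.58 to 6.53 in yDucts, so that Ducts A and B were above all other arrays. Muc3, Muc15 and Muc16 were too dim to be tested, and Muc6 and Muc19 were not analysed here.

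The enzymes that build the O-linked sugars of mucins were called in 17 of 17 cases in Ducts. Of these, 12 were higher and 5 lower, with a median difference of 1.43 against 0.21 for all genes, and 10 were higher and 5 lower in yDucts, with a median of 1.53 against 0.24. All genes were called higher in 42.7% and lower in 33.1% of cases in Ducts, and in 43.6% and 32.6% in yDucts. The counts in Ducts became 8 and 5 after quantile normalization, and the median in yDucts became 0.63 after quantile normalization and 0.42 after cyclic loess. Gcnt3, the enzyme that makes mucin-type branches, averaged 3.34 in Acini, 9.37 in Ducts and 9.65 in yDucts, and was at least 60.8-fold higher in yDucts than in Acini. Galnt12, which starts the sugar chain, rose by 2.80 ± 0.32 and 3.57 ± 0.32 (log2). Galnt3, which also starts chains, rose by 2.63 in Ducts, and C1galt1, which adds the next sugar, by 3.03 in yDucts. The 5 lower ones were the same in both groups: Galnt1, Galnt2, Galnt6, St6galnac1 and A4gnt, by differences of -0.46 to -1.41 in Ducts and -0.42 to -1.50 in yDucts. In yDucts against Ducts, where 2.15% of all genes were called higher and 0.987% lower, Gcnt1 was lower by a difference of -2.56 ± 0.56, Galnt3 by -1.10 ± 0.16 and Galnt7 by -0.80 ± 0.19, with adjusted p = 0.0261, 0.00217 and 0.0349. The calls of Gcnt1 and Galnt7 were each lost under 9 alternatives.

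Of 7 genes of mucus secretion and folding, 2 were higher and 3 lower in each organoid group. Higher calls against Acini made up 42.7% of the whole tested set in Ducts and 43.6% in yDucts. Lower calls made up 33.1% and 32.6%, so counts this small do not set the list apart. After quantile normalization 0 of the 7 were higher, and 3 were lower in Ducts and 4 in yDucts. With that scaling the whole tested set had 28.7% and 29.5% higher calls, and 35.9% and 35.6% lower calls. Zg16, a lectin known both from goblet cells and from the zymogen granules of acinar cells, fell from 14.23 to 4.22 in Ducts and 4.36 in yDucts. Spdef, a transcription factor of goblet and mucous cells, fell from 7.92 to 4.36 and 4.12. The third to fall was Creb3l1, a membrane-bound transcription factor of secretory cells, by differences of -0.87 and -1.27. The kinase Ern1, a sensor of unfolded proteins, was higher in Ducts by 0.87, but its difference turned to -0.25 after cyclic loess and to -0.09 when its probe sets were averaged. In yDucts it was higher by 0.45 and was called lower after quantile normalization (-0.40) and cyclic loess (-0.67). Txndc12, a thioredoxin-like protein of the endoplasmic reticulum, was higher in yDucts by 1.64 ± 0.38 (adjusted p = 0.0018) and in Ducts by 1.23. It was not called after quantile normalization, with 0.88 and 0.49, or cyclic loess, with 0.64 and 0.23. The 7 goblet and enterocyte markers, which include Zg16, had a mean level of 5.61 to 5.85 in Acini, 3.77 to 3.98 in Ducts and 3.86 to 3.99 in yDucts. The largest fall among them was that of Zg16. Alpi also fell, from 5.48 to 3.85 and 3.88, whereas Fcgbp averaged 7.30, 7.16 and 7.61 and, like Muc2, was not called. On every array of the 3 groups 4 of the 7 were above the 30th percentile.

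Genes of the gastric lineage went both ways. All genes were called higher in 42.7% and lower in 33.1% of cases in Ducts, and in 43.6% and 32.6% in yDucts. Of 18 gastric genes tested, 4 were higher and 8 lower in Ducts (median -0.34), and 4 higher and 7 lower in yDucts (median -0.23). After quantile normalization these became 4 and 3 in both, and the median in yDucts turned to 0.06. Those that rose most were Aqp5, a water channel of glands, by 5.69 ± 0.81 in Ducts and 7.33 ± 0.81 in yDucts, Onecut2, a transcription factor, by 5.56 and 5.58, and Ctse, the aspartic protease cathepsin E, by 4.90 and 4.32. The fourth was Foxq1, a transcription factor of gastric surface cells, by 4.12 and 3.66. Aqp5 was lowest on Ducts B, at 6.89 against 9.19, 11.27 and 11.59 on Ducts A, C and D. The 5 markers of gastric chief and parietal cells had mean levels of 3.93 to 4.28 in Acini, 3.62 to 3.73 in Ducts and 3.64 to 3.85 in yDucts, and 2 to 4 of them were above the 30th percentile on an array. Gkn3 and Psca were chosen after their values were seen. Gkn3, a gastrokine of the stomach, read 5.08, 10.25, 4.91 and 4.71 in Ducts, and Psca, a surface protein of gastric and bladder epithelium, 3.73, 7.65, 5.67 and 5.07. Both were highest on Ducts B, as were 6 of the 18 gastric genes within Ducts, against 5 on Ducts C, 4 on Ducts A and 3 on Ducts D. In contrast, Gkn3 read 6.24 to 6.71 in Acini and 4.84 to 5.12 in yDucts, where Anxa10 was high on 3 arrays.

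Intestinal genes were higher in 6 of 9 and lower in 2 in each organoid group, with medians of 2.35 in Ducts and 3.98 in yDucts. For all genes the medians were 0.21 and 0.24. Of all genes, 42.7% were called higher and 33.1% lower in Ducts, and 43.6% and 32.6% in yDucts. After cyclic loess 4 intestinal genes were higher in Ducts, with a median of 1.64, and 7 in yDucts, with a median of 3.19. The 2 lower ones were Reg4, a secreted lectin, and Alpi, the intestinal alkaline phosphatase. Lgals4, a gut galectin, rose by 6.74 ± 0.80 and 5.98 ± 0.80, and Cdh17, a cadherin of the intestine, by 5.53 ± 0.35 and 6.93 ± 0.35. Vil1, the actin bundler of microvilli, rose in Ducts by at least 20.0-fold, and Krt20, a keratin of mature gut epithelium, by 4.53 ± 0.87 in yDucts. Cdx2, the intestinal master transcription factor, was the list's only gene called between yDucts and Ducts. It read 6.2, 6.41, 6.75 and 6.55 in Ducts and 7.86, 7.67, 7.77 and 7.85 in yDucts (1.31 ± 0.27, adjusted p = 0.0190). The call was lost under 5 alternatives, among them quantile normalization (1.2, adjusted p = 0.14), while cyclic loess and centring on the median called 2 genes of the list.

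Of 13 endodermal and epithelial transcription factors, 8 were higher and 3 lower in Ducts, and 8 higher and 2 lower in yDucts. For all genes the shares were 42.7% higher and 33.1% lower in Ducts, and 43.6% and 32.6% in yDucts. After quantile normalization the counts of the 13 factors were 5 and 2 in Ducts and 7 and 3 in yDucts, and after cyclic loess 5 and 3 in both. Ehf, Klf5, Gata6, Foxa2, Foxa1, Pdx1 and Hnf4a were higher in both, by 3.56, 3.39, 2.10, 1.95, 2.66, 1.06 and 1.06 in Ducts and by 4.07, 3.77, 2.05, 2.03, 1.30, 1.26 and 1.34 in yDucts. Pdx1 in Ducts was not called after quantile normalization (0.57) or cyclic loess (0.31). Hnf4a in Ducts was not called after quantile normalization (0.19) and turned to -0.06 after cyclic loess. In yDucts neither was called after cyclic loess, with 0.51 for Pdx1 and 0.22 for Hnf4a. Elf3 was higher by 1.29 and 0.91. It was not called after quantile normalization, with 0.39 and 0.01, or cyclic loess, with 0.25 and, in yDucts, -0.13. Gata4 was lower by a difference of -2.25 in Ducts and -2.58 in yDucts, and Foxa3 by -1.66 and -3.16. Gata5 was lower in Ducts (-0.58, adjusted p = 0.00536) and did not pass the test in yDucts (-0.29, adjusted p = 0.113). Its most variable probe set gave 0.39 in Ducts and was called higher in yDucts (0.89, adjusted p = 0.000769). Klf4 and Sox9 did not pass the test, with differences of 0.34 and 0.56 in Ducts and -0.02 and 0.18 in yDucts. Klf4 was called lower in yDucts after quantile normalization (-0.88, adjusted p = 0.00928), and the most variable probe set of Sox9 was called higher in both (1.99, adjusted p = 0.00106, and 1.49, adjusted p = 0.00722). Foxa1 and Foxa3, pioneer factors of endodermal genes, were the only factors of the list called between organoids, lower in yDucts by differences of -1.36 ± 0.28 (adjusted p = 0.0190) and -1.50 ± 0.27 (adjusted p = 0.00722). The call of Foxa1 was lost after quantile normalization (-1.21, adjusted p = 0.0795) and without yDucts A or D (0.0637 and 0.0664), and that of Foxa3 without Ducts C and D (-1.40, 0.0685).

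Receptors and partners of trefoil factors and membrane mucins were higher in 7 of 9 in both organoid groups, with 0 lower in Ducts and 1, Lingo2, lower in yDucts. All genes were called higher in 42.7% and 43.6% of cases. After cyclic loess 5 were higher in yDucts. Lingo2 lay on average below the 30th percentile in both Acini and yDucts, and its call was lost under all 3 other scalings. Cd44, a surface receptor of the extracellular matrix, rose by 5.67 ± 0.36 and 6.47 ± 0.36, Lgals3, a galectin that binds mucins, by 5.41 and 5.43, and Egfr by 3.66 and 4.05. Of the 10 other annexins tested, 9 were higher in Ducts and 9 in yDucts, with medians of 3.41 and 3.88, and Anxa6 did not pass the test in either. Anxa3, Anxa13 and Anxa8 rose by 6.0, 4.33 and 4.08 in Ducts and by 5.58, 5.10 and 5.70 in yDucts. Lack of overlap with Acini was part of the rule that named them. It held for 64.5% of all genes in Ducts and 71.7% in yDucts. Anxa10 overlapped with Acini in both organoid groups.

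**Figure D5:**
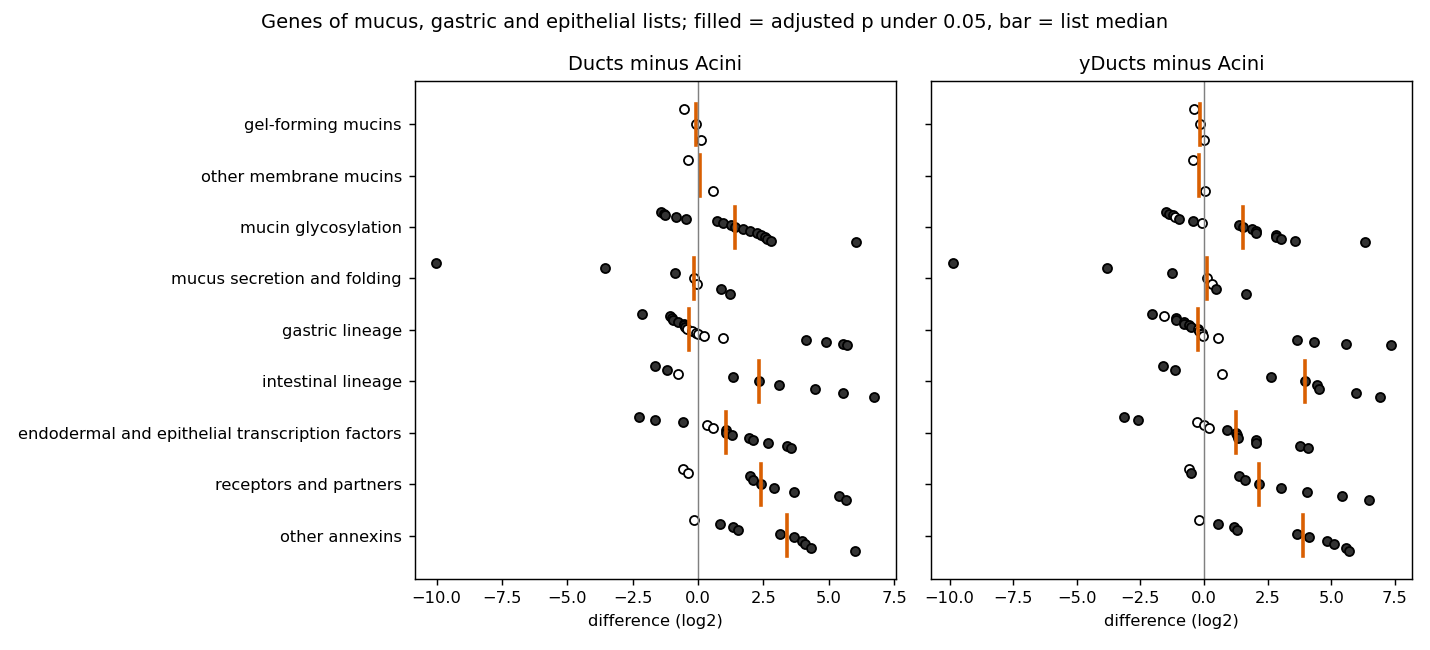
Difference in log2 expression from Acini (horizontal axis) for each tested gene of 9 lists in Ducts (left) and yDucts (right); filled points have an adjusted p under 0.05 and bars mark the list's median. The annexins and the receptors and partners lie mostly above 0, while the gastric genes are spread about a median of -0.34 in Ducts and -0.23 in yDucts.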

How the data were processed

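Total RNA of the 12 samples was labelled with biotin and hybridised to Affymetrix mouse arrays. The values deposited by the authors are log2 expression levels of probe sets, with 1 column per array. RMA is named in the submitters' notes; it corrects background, quantile-normalizes probes and condenses each probe set by median polish. The sources used here give neither its version nor whether all arrays went through it together. Such values are relative to the other genes of an array, and no detection calls came with them.

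Of 45101 probe sets, 34958 had 1 gene symbol in the platform annotation, 932 had several and 9211 had none. The 64 control probe sets were left out. A gene was represented by the probe set with 1 symbol and the highest mean over the 12 arrays, and was tested if, on 4 or more arrays, this exceeded the array's 30th percentile. Groups were compared with limma 3.58.1 in R 4.3.3 (group means, all 12 arrays, 9 residual and 3.72 prior degrees of freedom, two-sided, Benjamini-Hochberg adjustment over 14990 genes or, for single probe sets, 33436), a fit also run on simulated data. A fold is "at least" where a group's mean was below its 30th percentile. Each value of that group below its array's percentile was then raised to it before averaging. Such a fold is still an estimate and not the lower end of an interval. Precision is limited by the number of arrays.

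The members and gene lists were chosen with earlier results of these data known. Named were all members, and from the other lists all tested mucins and transcription factors and, per list and comparison, up to 3 called genes with the largest differences whose groups did not overlap, with the 3 genes of most similar centred levels per member. Gkn3, Psca and the genes that complete a count of 5 or fewer were named after their values were seen. Alternatives covered scaling, filter, probe set, variance model, samples in the fit, the replicate letter as a block, and arrays left out. Promoter sequences came from RefSeq (GRCm38.p6).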

Additional observations from a re-analysis of the deposited data

Results flagged for a closer look

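Each of the 11 probe sets was checked in each of the 3 groups, 33 groups of 4 arrays in all, for an array far from the other 3, and 2 such arrays were found, where chance alone flags about 1 group in 20. Agr2 read 4.39 on yDucts D through probe set 1419268_at, with the nearest other array of the group at 3.65. Anxa10 read 4.77 on Ducts B through probe set 1430443_at, with the nearest at 2.53, and Ducts B was also the highest Ducts array for the other probe set of Anxa10, at 9.09.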

How the results depend on the processing

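For the 21 differences of the 7 genes in 3 comparisons, 25 alternatives gave 525 values, of which 482 kept their direction and their side of the threshold, 8 lost the call, 16 gained one and 19 reversed. The 7 differences that never changed side or direction were those of Tff2 and Agr2 against Acini in both organoid groups, Anxa10 in Ducts against Acini, and Tff3 and Agr2 between organoids. The cause of the changes was not tested. Cyclic loess gave 5 genes called in Ducts against Acini, in place of 3, where 62.4% of all genes were called. With the arrays of both groups only, 6 were called in yDucts against Acini, in place of 4, where 77.1% of all genes were called. In yDucts against Ducts, 1 gene was called with the mean of probe sets, 1 with an intensity trend, 3 with array weights and 1 without Ducts A and B, in place of 0. All genes called there numbered 6175 with array weights and 2188 without Ducts A and B, in place of 470. Ducts minus Acini turned to 0.16 for Tff1 and 0.43 for Tff3 with array weights, to 0.07 and 0.33 without Ducts A and B, and to 0.18 for Tff3 with arrays centred on their median. It turned to -0.45 for Muc1 with quantile normalization, -0.98 with cyclic loess and, leaving out Ducts C and D, -0.02. yDucts minus Ducts turned to 0.05 for Tff1 without Ducts C and D, and for Muc4 to 0.76 with array weights and 0.87 without Ducts A and B. Among the 63 calls that the naming rule took from the other lists, 4 reversed at least once: Ern1 (-0.25 with cyclic loess, -0.09 with the mean of probe sets), Gata5 (0.39 with the most variable probe set) and Hnf4a (-0.06 with cyclic loess) in Ducts, and Elf3 (-0.13 with cyclic loess) in yDucts. Some calls named outside that rule reversed too. Galnt1 reached 0.11 in Ducts and 0.17 in yDucts against Acini. In yDucts, Ern1 turned to -0.40 with quantile normalization and -0.67 with cyclic loess, and Lingo2 to 0.06 with cyclic loess. Leaving out each array in turn, ranges that crossed 0 were -0.26 to 0.43 for Tff3 and -0.07 to 0.24 for Muc1 in Ducts minus Acini, -0.01 to 0.78 for Tff3 in yDucts minus Acini, and -0.12 to 1.09 for Tff2 and -1.95 to 0.32 for Muc4 in yDucts minus Ducts. The genes called between organoids ranged from 0 to 1 of the 7 and from 229, without yDucts A, to 838, without Ducts B, of all.

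Same-lettered arrays of different groups did not deviate together, with correlations from -0.35 to 0.13 over 12 pairs, so the letters were not taken to pair the samples. With the replicate block, 3, 4 and 0 of the 7 genes were called in the 3 comparisons, as without it, and 11178, 11264 and 388 of all genes against 11355, 11423 and 470. Quantile normalization changed the split of all calls in Ducts against Acini from 6395 higher and 4960 lower to 4296 and 5380, and cyclic loess to 3861 and 5493.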
